A study of Mus musculus with 9 samples.

Results

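The enzymes that modify and crosslink collagen were followed in the mouse iris after corneal alkali injury (CAI). The 10 genes were chosen by symbol: the lysyl oxidases Lox, Loxl1, Loxl2, Loxl3 and Loxl4, the lysyl hydroxylases Plod1, Plod2 and Plod3, and the prolyl 4-hydroxylase alpha subunits P4ha1 and P4ha3. Earlier results of these data were known when the genes were chosen. All 10 were found among the 18349 genes with counts, and all 10 were among the 15010 that passed the filter on low counts. The study asked how lymphatic vessels that grow into the injured iris bear on inflammation. Poly(A) RNA of irises was sequenced in 9 libraries, 3 per group, each of 3 pooled irises, and every mouse was on the C57BL/6J background and carried floxed VEGFR3 alleles. The Sham VEGFR3 fl/fl group had PBS on the cornea, and the injured VEGFR3 fl/fl group had filter paper with 0.5 µL of 1 M sodium hydroxide for 60 s. The injured VEGFR3iLECko group had that injury and also Prox1CreERT2, a tamoxifen-inducible Cre under the control of Prox1, a gene that is active in lymphatic endothelium. Injury was at 6 weeks of age, tamoxifen (80 mg/kg) was given on days 13 to 17 after injury to the Cre carriers and to littermate VEGFR3 fl/fl controls, and irises were taken at 10 weeks of age without their outer edge.

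Collagen chains are modified in the endoplasmic reticulum before they leave the cell. Prolyl 4-hydroxylase, built of catalytic alpha and P4HB beta subunits, hydroxylates proline and so stabilizes the triple helix, while lysyl hydroxylases hydroxylate lysine, which sets the kind of crosslink formed later. Outside the cell, copper-dependent lysyl oxidases oxidize lysine and hydroxylysine in collagen and elastin, and the products join neighbouring molecules into the insoluble, stiff matrix of scars.

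Between 16617187 and 18306359 counts were assigned per library, and levels are given as CPM (counts scaled to a common library size) after scaling by the trimmed mean of M values (TMM). Pigment cell markers (Tyr, Tyrp1, Dct, Pmel and Mlana) summed to 27250 to 29090 CPM in Sham irises and smooth muscle markers to 7209 to 9403 CPM, as the iris label calls for, and both sums were lower in every injured library (3325 to 7010 CPM and 1457 to 3523 CPM). The summed macrophage markers were at 247 to 253 CPM in Sham, 1917 to 2021 CPM in injured VEGFR3 fl/fl libraries and 1328 to 1409 CPM in injured VEGFR3iLECko irises. Between the injured groups the members of this list differed. Cd14 was higher in every VEGFR3iLECko library (log2 fold change 0.86 by edgeR), Mrc1 overlapped (-0.10), and 4 members were lower in every VEGFR3iLECko library. In such whole-tissue RNA, a changed number of cells of a type and a changed amount of RNA per cell cannot be told apart. Replicate 1 of the injured VEGFR3 fl/fl group stood apart: the chi-square of its counts per degree of freedom was 76.2 and 67.4 against its partners, which had 26.7 between them. Its summed fibroblast markers reached 7948 CPM, with Dcn at 4818 CPM and Lum at 1929 CPM, against 2262 and 3384 CPM in the others of its group. Its summed corneal epithelium markers were 117 CPM against 3.34 and 11.6 CPM, but this was Aldh3a1 at 117 CPM, while the keratins Krt12 and Krt5 were at 0.182 CPM each and Krt14 was at 0. Flt4, which encodes VEGFR3, was not lower in the libraries labelled VEGFR3iLECko (27.9, 21.0 and 27.4 CPM) than in injured VEGFR3 fl/fl irises (16.8, 20.7 and 23.0 CPM) by edgeR (log2 fold change 0.34, adjusted p = 0.1999), so the targeted gene did not check the label, and the group is named here as labelled.

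The lysyl oxidases Lox and Loxl1 rose most in their family after injury. Lox, the founding lysyl oxidase (chromosome 18, 52516060 to 52529867, minus strand, GRCm38), was at 17.1, 12.7 and 17.6 CPM in Sham irises, at 271, 497 and 601 CPM in injured VEGFR3 fl/fl irises and at 635, 616 and 754 CPM in injured VEGFR3iLECko irises. The 3 groups did not overlap, with Sham lowest and VEGFR3iLECko highest, although the lowest VEGFR3iLECko library lay close above the highest injured VEGFR3 fl/fl library. Against Sham, Lox was 28.9-fold higher in injured VEGFR3 fl/fl irises (log2 fold change 4.85 ± 0.30 SE, adjusted p = 1.77e-06, edgeR's quasi-likelihood test) and 42.3-fold higher in injured VEGFR3iLECko irises (5.40 ± 0.31 SE). These comparisons share the Sham libraries, so they are given side by side and are not independent. Loxl1 (chromosome 9, 58287723 to 58313212, minus strand), which is needed for elastic fiber upkeep, was the most abundant of the 10 enzymes in each group when counts were taken per transcript length. It was at 164, 144 and 175 CPM in Sham, at 939, 656 and 532 CPM in injured VEGFR3 fl/fl libraries and at 600.3, 567 and 602 CPM in injured VEGFR3iLECko irises. Every injured library lay above every Sham library, and the injured groups overlapped. The rise was 4.41-fold (log2 fold change 2.14 ± 0.19 SE) in injured VEGFR3 fl/fl libraries and 3.67-fold (1.88 ± 0.19 SE) in injured VEGFR3iLECko irises.

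**Figure D1:**
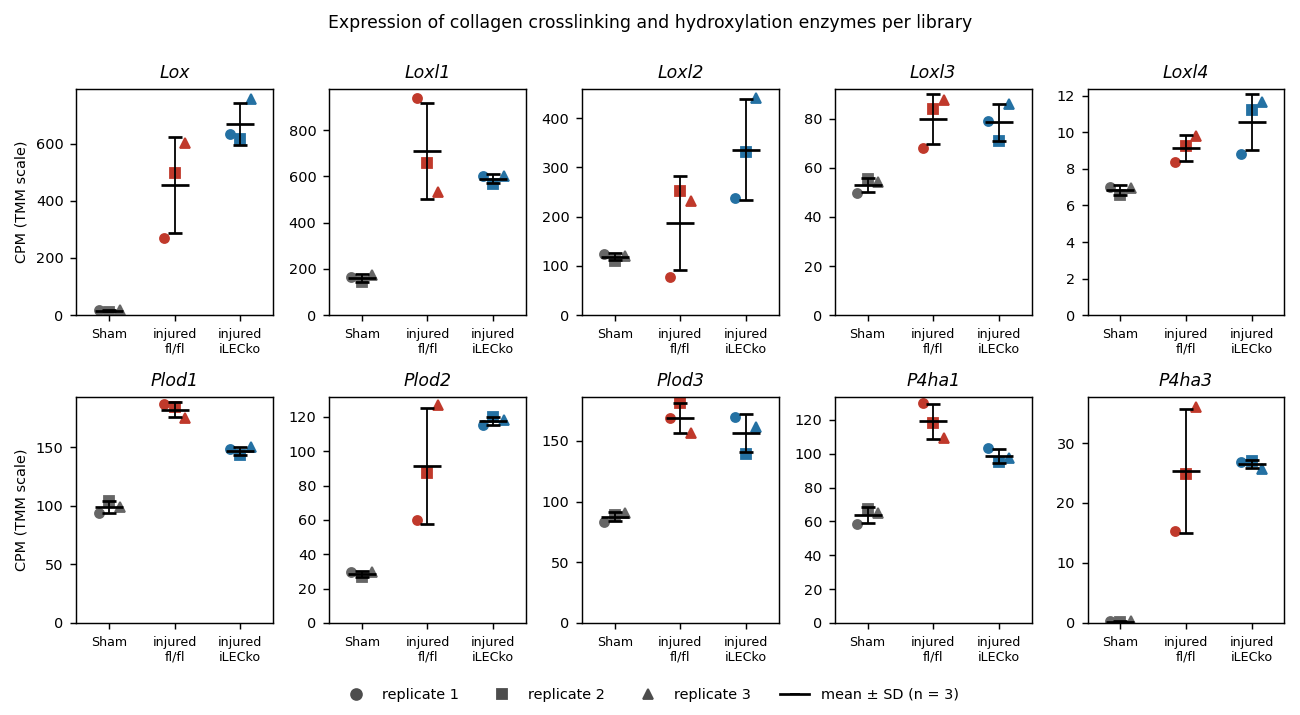
Level of each enzyme in CPM after TMM scaling, with 1 marker per library (circle, square and triangle for replicates 1, 2 and 3), and the mean ± SD of the 3 libraries of a group in black. Each axis starts at 0; Lox and P4ha3 were close to 0 in Sham irises, and the circle of the injured VEGFR3 fl/fl group was the lowest of its group for 6 enzymes and the highest for 3.

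Loxl2, Loxl3 and Loxl4, which carry scavenger receptor domains in front of the catalytic domain, differed less. Loxl2 (chromosome 14, 69608692 to 69695834, plus strand), which crosslinks collagen IV of basement membranes, was at 125, 111 and 119 CPM in Sham, at 77.0, 252 and 233 CPM in injured VEGFR3 fl/fl libraries and at 237, 330.2 and 441 CPM in injured VEGFR3iLECko irises. Replicate 1 of the injured VEGFR3 fl/fl group lay below all Sham libraries while its partners lay above them, and the VEGFR3iLECko libraries all lay above Sham. The difference of injured VEGFR3 fl/fl from Sham missed the threshold (log2 fold change 0.66 ± 0.39 SE, adjusted p = 0.166, edgeR); without replicate 1 it was 1.03 with an adjusted p of 0.0025. In injured VEGFR3iLECko irises Loxl2 was 2.84-fold higher than in Sham (1.51 ± 0.39 SE, adjusted p = 0.00955, edgeR). Loxl3 (chromosome 6, 83034205 to 83052566, plus strand) was at 49.9, 55.4 and 54.1 CPM in Sham, at 68.1, 83.8 and 87.6 CPM in injured VEGFR3 fl/fl libraries and at 79.1, 70.9 and 85.8 CPM in injured VEGFR3iLECko irises. Its injured libraries all lay above its Sham libraries. Its fold sat at the threshold of 1.5, at 1.503 in injured VEGFR3 fl/fl (log2 fold change 0.59 ± 0.11 SE, called) and 1.48 in injured VEGFR3iLECko irises (0.57 ± 0.11 SE, not called). Leaving out Sham replicate 1 or injured VEGFR3 fl/fl replicate 2 or 3 ended the first call (log2 fold change 0.52 to 0.55), and leaving out Sham replicate 2 or VEGFR3iLECko replicate 2 gave the second (0.60 and 0.64). Loxl4 (chromosome 19, 42592279 to 42612806, minus strand) was the lowest lysyl oxidase, at 7.03, 6.55 and 6.98 CPM in Sham, 8.38, 9.25 and 9.82 CPM in injured VEGFR3 fl/fl libraries and 8.82, 11.2 and 11.7 CPM in injured VEGFR3iLECko irises. Again no injured library overlapped the Sham libraries, but the fold was 1.33 in injured VEGFR3 fl/fl (adjusted p = 0.0304, edgeR, under the fold threshold) and 1.54 in injured VEGFR3iLECko irises (adjusted p = 0.00489, edgeR, called). That last call ended without VEGFR3iLECko replicate 2 or 3 (log2 fold change 0.58 and 0.55).

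All 3 lysyl hydroxylases rose after injury, and Plod2 rose most. Plod2 (chromosome 9, 92539636 to 92608428, plus strand), which hydroxylates the telopeptide lysines that give the stable pyridinoline crosslinks of fibrotic tissue, was at 29.6, 26.8 and 29.5 CPM in Sham, at 59.7, 87.3 and 127 CPM in injured VEGFR3 fl/fl libraries and at 115, 119.8 and 118 CPM in injured VEGFR3iLECko irises. No injured library came near the Sham libraries. The injured VEGFR3 fl/fl libraries spread over a 2.12-fold range that took in all VEGFR3iLECko libraries, which spread over 1.04-fold. Plod2 was 3.19-fold higher than Sham in injured VEGFR3 fl/fl (log2 fold change 1.67 ± 0.22 SE, adjusted p = 0.000183, edgeR) and 4.12-fold higher in injured VEGFR3iLECko irises (2.04 ± 0.23 SE). Plod1 (chromosome 4, 147909753 to 147936776, minus strand), the hydroxylase of helical lysines, was at 94.1, 104 and 99.3 CPM in Sham, 187, 185 and 175 CPM in injured VEGFR3 fl/fl libraries and 148, 143 and 149.6 CPM in injured VEGFR3iLECko irises. Its 3 groups did not overlap, with injured VEGFR3 fl/fl highest and VEGFR3iLECko between the others. Plod1 was 1.84-fold higher than Sham in injured VEGFR3 fl/fl irises (log2 fold change 0.88 ± 0.07 SE, adjusted p = 5.01e-06, edgeR), while 1.48-fold (0.57 ± 0.06 SE) in injured VEGFR3iLECko irises was under the fold threshold, which it passed without Sham replicate 2 or VEGFR3iLECko replicate 2 (0.60 and 0.59). Plod3 (chromosome 5, 136987019 to 136996646, plus strand), which also carries glycosyltransferase activity, was at 83.2, 89.1 and 90.4 CPM in Sham, 169, 182 and 157 CPM in injured VEGFR3 fl/fl libraries and 169, 139 and 162 CPM in injured VEGFR3iLECko irises. All injured libraries lay above Sham and the injured groups overlapped. The rise was 1.93-fold in injured VEGFR3 fl/fl (log2 fold change 0.95 ± 0.09 SE) and 1.79-fold in injured VEGFR3iLECko irises (0.84 ± 0.09 SE).

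Of the prolyl 4-hydroxylase alpha subunits, P4ha3 had the largest rise of all 10 enzymes. P4ha3 (chromosome 7, 100285489 to 100319701, plus strand) was at 0.277, 0.113 and 0.282 CPM in Sham irises (5, 2 and 5 counts), at 15.4, 24.8 and 36.0 CPM in injured VEGFR3 fl/fl irises (253, 423 and 626 counts) and at 26.8, 27.1 and 25.7 CPM in injured VEGFR3iLECko irises (458, 478 and 446 counts). Each injured library held many times the counts of any Sham library, and the injured VEGFR3 fl/fl range took in all VEGFR3iLECko libraries. Over the 3 libraries of a group, depth-scaled counts were 114 times those of Sham in injured VEGFR3 fl/fl (95% exact interval 65.0 to 221, 1302 against 12 counts) and 118 times in injured VEGFR3iLECko irises (67.4 to 229). These intervals cover counting error only. The fitted log2 fold changes were 6.78 ± 0.42 SE (adjusted p = 1.63e-06, edgeR) and 6.84 ± 0.42 SE. P4ha1 (chromosome 10, 59323197 to 59373304, plus strand), the alpha subunit of the main form in most cells, was at 58.4, 67.6 and 64.9 CPM in Sham, 130.2, 118 and 109 CPM in injured VEGFR3 fl/fl libraries and 103, 95.3 and 97.4 CPM in injured VEGFR3iLECko irises. The 3 groups did not overlap, in the same order as for Plod1. It was 1.87-fold higher than Sham in injured VEGFR3 fl/fl (log2 fold change 0.90 ± 0.09 SE) and 1.55-fold higher in injured VEGFR3iLECko irises (0.63 ± 0.09 SE), and the latter call ended without Sham replicate 1 (0.57). P4ha2, the remaining alpha subunit, was not among the 10 and was looked at after its values were seen: it averaged 24.1 ± 1.998 CPM (SD, n = 3) over Sham, 32.1 ± 2.99 CPM over injured VEGFR3 fl/fl and 39.8 ± 5.77 CPM over injured VEGFR3iLECko irises, with log2 fold changes from Sham of 0.42 (not called) and 0.73 (called).

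RefSeq promoter sequences were given for 5 of the 10 genes (Loxl4, Plod1, Plod3, P4ha1 and P4ha3). The 250 bases before the annotated start (GRCm38.p6) are printed 5′ to 3′ on the strand of the gene for the alpha subunits P4ha1 and P4ha3, whose log2 fold changes of 0.90 and 6.78 lay far apart, and for Plod1 and Plod3, whose changes of 0.88 and 0.95 were alike. Capitals mark the core of the hypoxia response element (ACGTG or GCGTG) and the SP1 box (GGGCGG), on either strand. The start that the sequence table uses lies inside the span of the gene given above for P4ha1 and P4ha3 and at its edge for Plod1 and Plod3.
P4ha1 (chr10:59323046-59323295, plus strand): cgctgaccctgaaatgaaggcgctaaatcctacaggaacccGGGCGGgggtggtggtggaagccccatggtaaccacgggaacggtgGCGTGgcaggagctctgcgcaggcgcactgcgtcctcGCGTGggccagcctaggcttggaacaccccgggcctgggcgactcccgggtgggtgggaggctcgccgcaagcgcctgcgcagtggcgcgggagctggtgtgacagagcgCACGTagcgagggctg
P4ha3 (chr7:100285270-100285519, plus strand): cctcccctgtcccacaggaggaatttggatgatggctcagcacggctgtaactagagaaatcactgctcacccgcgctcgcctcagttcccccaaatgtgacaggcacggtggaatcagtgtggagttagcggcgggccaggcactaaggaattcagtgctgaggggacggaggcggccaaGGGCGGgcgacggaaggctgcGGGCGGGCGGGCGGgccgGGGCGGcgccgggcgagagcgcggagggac
Plod1 (chr4:147936777-147937026, minus strand): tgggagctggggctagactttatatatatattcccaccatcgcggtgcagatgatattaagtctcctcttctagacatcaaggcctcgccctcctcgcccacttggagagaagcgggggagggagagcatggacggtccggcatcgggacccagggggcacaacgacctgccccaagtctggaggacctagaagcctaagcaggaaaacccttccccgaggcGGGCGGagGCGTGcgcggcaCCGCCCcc
Plod3 (chr5:136986769-136987018, plus strand): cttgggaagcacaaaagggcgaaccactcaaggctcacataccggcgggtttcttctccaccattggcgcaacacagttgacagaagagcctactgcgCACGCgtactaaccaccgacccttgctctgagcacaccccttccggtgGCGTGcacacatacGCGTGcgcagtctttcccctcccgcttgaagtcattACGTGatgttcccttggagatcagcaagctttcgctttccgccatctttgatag

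In these windows the hypoxia core was found 3 times before P4ha1, 0 times before P4ha3, 1 time before Plod1 and 4 times before Plod3, and 38.6% of 32851 promoters of the same length held at least 1. The SP1 box was found 1 time before P4ha1, 5 times before P4ha3, 2 times before Plod1 and 0 times before Plod3 (32.7% of all promoters), and 3 of the 5 boxes of P4ha3 overlap each other. The Loxl4 window held 1 hypoxia core and 3 SP1 boxes. No hypoxia core shares a base with an SP1 box in the printed sequences. The TATA box TATAAA (on the strand of the gene only, 7.59% of all promoters) and the AP-1 site TGANTCA (either strand, 6.75%) were in none of the 5 windows, and CCAAT (either strand, 33.9%) was in that of Plod3. The windows were 55.6% to 76% G and C, above the median of 52.4% over all promoters. These matches describe the letters of the windows.

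Counted together, 8 of the 10 enzymes were called higher and 0 lower in injured VEGFR3 fl/fl than in Sham irises by edgeR (adjusted p under 0.05 and more than 1.5-fold), where 22.1% of all tested genes were called higher and 17.5% lower. The 10 were chosen with earlier results of these data known, so such counts describe them and test nothing against all genes. By the unadjusted p, 9 of the 10 were under 0.05, and DESeq2 also called 8. The median log2 fold change was 0.93 over the enzymes and 0.01 over all tested genes. Scaling by library size alone moved the median of all genes to -0.16 and turned the split of all calls from 3323 higher and 2630 lower to 2783 higher and 3523 lower; it changed the direction of no enzyme against Sham. For 9 of the enzymes the injured VEGFR3 fl/fl and Sham libraries did not overlap, and this was so for 66.3% of all genes. In injured VEGFR3iLECko against Sham irises 8 of 10 were called higher and 0 lower (19.7% and 15% of all genes), the median was 1.17 (all genes -0.01), and the groups were apart for all 10 (66.5% of all genes). Summed macrophage markers moved in the same direction as the enzymes (247 to 253 CPM in Sham, 1328 to 2021 CPM in injured irises) and pigment and smooth muscle sums in the opposite one. Sums of blood endothelium, lymphatic endothelium, neutrophil and T cell markers also rose. Cldn5 of the blood endothelium list was called lower in both injured groups against Sham (log2 fold change -0.79 and -1.27). The neutrophil sum was nearly all S100a8 and S100a9, and the lymphatic sum nearly all Pdpn. Summed fibroblast markers were at 3968 to 4257 CPM in Sham and 2621 to 3378 CPM in injured VEGFR3iLECko irises. In injured VEGFR3 fl/fl irises they were at 2262 and 3384 CPM, with only replicate 1 above Sham, at 7948 CPM. The members of the fibroblast list did not move together. In injured VEGFR3 fl/fl against Sham, Lum (log2 fold change 1.54) and Pi16 (1.08) were called higher and Fbln1 (-0.88) lower. Dcn (0.21) and Pdgfra (0.16) were not called there, and 0 of the 5 were called in VEGFR3iLECko against Sham. The part of any of these cell types in the rises was not tested.

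**Figure D2:**
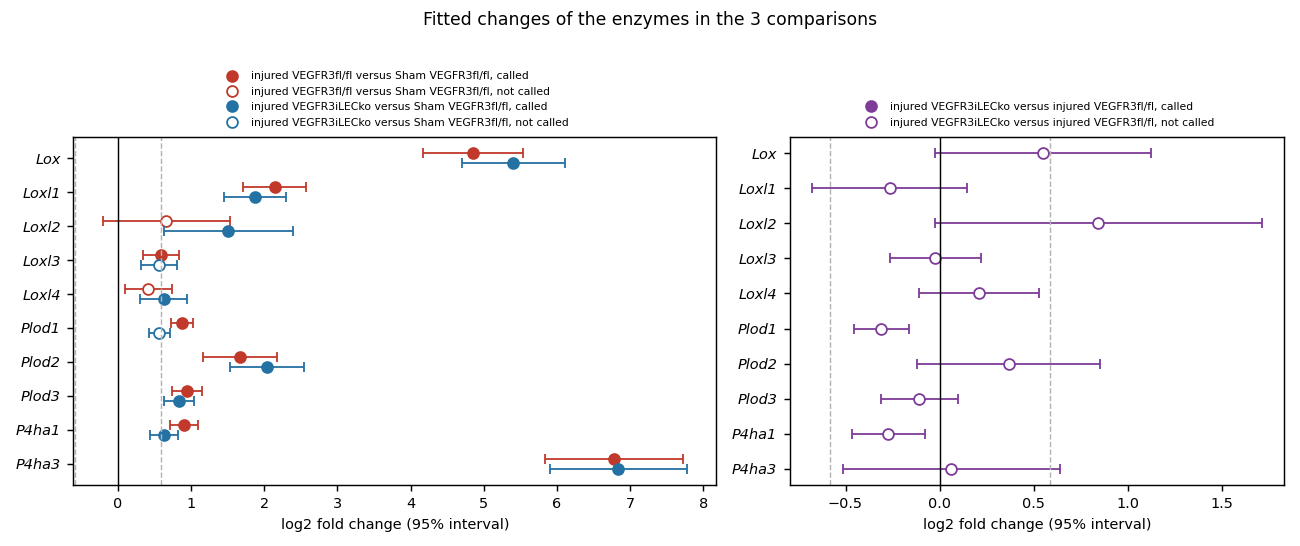
Fitted log2 fold change of each enzyme with its 95% interval (edgeR), against Sham on the left and between the injured groups on the right; filled points were called, open points were not, and dashed lines mark 1.5-fold. On the left 8 filled points stand in each comparison, and on the right all 10 points are open.

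Between the injured groups, where VEGFR3iLECko stands for the libraries so labelled, edgeR called 0 of the 10 enzymes (0.573% of all genes were called higher and 0.466% lower), DESeq2 called 0 as well, and 2 had an unadjusted p under 0.05 by edgeR and 3 by DESeq2. Plod1 came nearest: it was 0.31 ± 0.06 SE lower on the log2 scale in injured VEGFR3iLECko irises (95% interval -0.46 to -0.16, adjusted p = 0.053, edgeR), and DESeq2 gave an adjusted p of 0.000215 (0.00649 on the 6 libraries compared), but the fold of 1.24 was under the threshold. P4ha1 differed by -0.27 ± 0.09 SE (95% interval -0.46 to -0.08, adjusted p = 0.111, edgeR). Plod1 and P4ha1 were the enzymes whose VEGFR3iLECko libraries all lay below those of injured VEGFR3 fl/fl, and Lox was the one whose libraries all lay above; groups that do not overlap were seen for 26.7% of all genes. For Lox the difference was 0.55 (95% interval -0.02 to 1.13) and for Loxl2 0.84 (-0.03 to 1.71), and both intervals reached beyond 1.5-fold higher. For Loxl3 the interval was -0.27 to 0.22 and for Plod3 -0.31 to 0.10, both within 1.5-fold. The intervals of Loxl4 (-0.11 to 0.53) and Plod1 were also within 1.5-fold, those of Loxl1 (-0.68 to 0.14), Plod2 (-0.12 to 0.85) and P4ha3 (-0.51 to 0.64) were not. The median over the enzymes was 0.02, and that of all genes -0.01.

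These differences moved with single injured VEGFR3 fl/fl libraries. Replicate 1, which stood apart, was the lowest of its group for 6 enzymes (Lox, Loxl2, Loxl3, Loxl4, Plod2 and P4ha3) and the highest for 3 (Loxl1, Plod1 and P4ha1), while over all tested genes it was lowest for 38.3% and highest for 38.8%. Without it, the difference of VEGFR3iLECko from injured VEGFR3 fl/fl was 0.29 for Lox, 0.48 for Loxl2, 0.14 for Plod2, -0.01 for Loxl1 and -0.19 for P4ha3, and 0 enzymes were called. Without replicate 3, which was the highest of its group for Lox, Plod2 and P4ha3, the differences moved the other way, to 0.80 for Lox, 1.03 for Loxl2, 0.68 for Plod2, -0.44 for Loxl1 and 0.40 for P4ha3. Against Sham, leaving out replicate 1 raised the log2 fold change of Lox to 5.12, of Plod2 to 1.90 and of P4ha3 to 7.04, lowered that of Loxl1 to 1.89, and brought the count of called enzymes to 9, while leaving out replicate 3 gave 4.61, 1.36, 6.44 and 2.31 for these 4 genes. The high Dcn and Lum and the low pigment and smooth muscle sums of replicate 1 moved with these values, and their part in them was not tested.

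The makeup of each family in Sham irises was unlike that in injured irises for most enzymes, though the exact permutation test used for shares cannot pass 0.05 with 3 against 3 libraries. Counts were divided by the length of the longest transcript and each enzyme was given as a percent of its family in the same library. For the prolyl 4-hydroxylase alpha subunits the family was P4ha1 and P4ha3 only, without P4ha2. Lox made up 3.98, 3.24 and 3.93% of the lysyl oxidases in Sham, 15.2, 28.0 and 35.6% in injured VEGFR3 fl/fl irises and 35.03, 33.8 and 35.5% of them in the VEGFR3iLECko irises. Its share in every injured library was above that in Sham, and the injured groups overlapped. Loxl2 was at 24.98 ± 1.02% (SD, n = 3) in Sham, 9.61 ± 4.98% in injured VEGFR3 fl/fl libraries and 15.4 ± 3.48% in injured VEGFR3iLECko irises, and Loxl3 at 14.6 ± 1.59%, 5.30 ± 0.80% and 4.74 ± 0.28%. Loxl1 was at 54.6 ± 1.67% in Sham and stayed the largest share, at 58.1 ± 15.9% and 44.4 ± 3.499%. The direction of its difference from Sham was not stable: in injured VEGFR3 fl/fl it was -5.35 percentage points without replicate 1, and in VEGFR3iLECko 4.78 points with the median transcript length. The shares of Loxl2 and Loxl3 were smaller in all injured libraries, while their mean CPM was not below that of Sham.

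Among the lysyl hydroxylases Plod2 was at 13.3 ± 1.06% (SD, n = 3) in Sham, 20.4 ± 6.73% in injured VEGFR3 fl/fl libraries and 27.8 ± 1.71% in injured VEGFR3iLECko irises. Plod1 was at 41.2 ± 1.03%, 36.9 ± 3.11% and 31.0 ± 0.70%, and Plod3 at 45.5 ± 0.55%, 42.7 ± 3.93% and 41.2 ± 2.40%. These shares used a non-coding Plod1 transcript of 4097 bases. With the longest protein-coding transcripts the mean length-scaled level in Sham was 80.5 for Plod1 and 70.4 for Plod3. The larger share in Sham would then be that of Plod1. P4ha3 was 0.791, 0.280 and 0.725% of the summed P4ha1 and P4ha3 level in Sham, 16.56, 26.1 and 35.6% in injured VEGFR3 fl/fl irises and 30.3, 32.4 and 30.7% of it in the VEGFR3iLECko irises. In the VEGFR3iLECko libraries these shares lay within a narrow band, and in injured VEGFR3 fl/fl they spread widely. P4ha2 was left out of the sum. Its mean length-scaled level (approximate TPM) was 22.8 in Sham, 24.7 in injured VEGFR3 fl/fl and 33.9 in injured VEGFR3iLECko irises. That of P4ha3 was 0.272, 25.2 and 28.7, so shares of P4ha1 and P4ha3 among all 3 alpha subunits would be smaller. Between injured VEGFR3 fl/fl and Sham the shares did not overlap for any enzyme but Loxl1 and Plod3, and between the injured groups they did not overlap for Plod1. Against Sham the gap was narrow at injured VEGFR3 fl/fl replicate 1. Its Plod2 share was 14.4% against at most 14.32% in Sham, and its Plod1 share was 40.22% against at least 40.49%. Each difference without overlap had a 2-sided exact permutation p of 0.1, the smallest that 3 against 3 libraries allow, and an adjusted p of 0.158 over the 30 comparisons of shares (exact permutation test), so none passed 0.05.

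**Figure D3:**
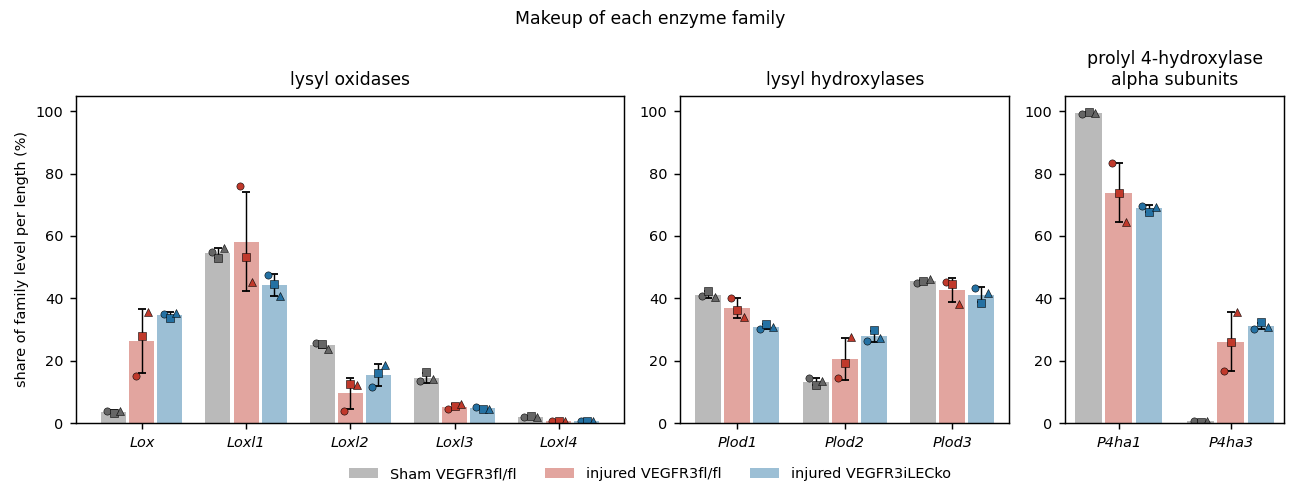
Share of each enzyme in its family in percent, from counts per length of the longest transcript; bars give the mean of 3 libraries, error bars the SD, and markers the libraries (circle, square and triangle for replicates 1, 2 and 3). The shares of Lox, Plod2 and P4ha3 were larger in the injured groups than in Sham, and those of Loxl2, Loxl3 and P4ha1 smaller.

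By approximate TPM (length-scaled levels) over all genes with a known length, the order of levels in Sham irises ran from Loxl1 (140.9 ± 18.1, SD, n = 3) through Plod3 (77.0 ± 2.66), Plod1 (69.7 ± 0.89), Loxl2 (64.3 ± 6.34), P4ha1 (45.3 ± 1.83), Loxl3 (37.4 ± 0.92), Plod2 (22.6 ± 2.09), Lox (9.64 ± 1.97) and Loxl4 (5.30 ± 0.41) to P4ha3 (0.272 ± 0.123). Plod1 and Loxl2 were the only neighbours whose libraries overlapped. The Plod1 length is that of a non-coding transcript of 4097 bases, and with the longest protein-coding transcripts (3243 bases for Plod1) Plod1 (80.5 ± 0.97 TPM) stood above Plod3 (70.4 ± 2.52 TPM) in Sham and no neighbours overlapped there. Plod1 also passed Plod3 in injured VEGFR3 fl/fl irises (121 ± 7.70 and 112 ± 12.2 TPM), where they overlapped. In injured VEGFR3 fl/fl irises Lox was second (230 ± 97.5 TPM) after Loxl1 (497 ± 106 TPM), P4ha3 (25.2 ± 11.6 TPM) was above Loxl4 (5.76 ± 0.87 TPM), and all neighbours from Lox down to P4ha3 overlapped. In injured VEGFR3iLECko irises Loxl1 (465 ± 8.56 TPM), Lox (367 ± 41.3 TPM) and Loxl2 (165 ± 51.9 TPM) led, and only Loxl2 and Plod3 (124 ± 8.73 TPM) overlapped as neighbours; with protein-coding lengths Plod3 and Plod1 did too.

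The collagen substrates rose far more than most of the enzymes. Col1a1 was at 310 to 377 CPM in Sham and 4444 to 5632 CPM in injured VEGFR3 fl/fl irises, Col1a2 at 399 to 442 and 4331 to 6303 CPM, and Col3a1 at 472 to 553 and 3797 to 7879 CPM. The summed lysyl oxidase level per length over that of these 3 fibrillar collagen genes was -1.34 ± 0.21 (log2 ratio, SD, n = 3) in Sham, -2.97 ± 0.31 in injured VEGFR3 fl/fl and -2.91 ± 0.20 in injured VEGFR3iLECko irises. For the lysyl hydroxylases the log2 ratios were -1.94 ± 0.10, -4.58 ± 0.25 and -4.72 ± 0.14, and for P4ha1 with P4ha3 they were -3.83 ± 0.09, -6.18 ± 0.21 and -6.43 ± 0.18. No injured library overlapped Sham in any of these ratios (exact permutation p = 0.1, the smallest possible, adjusted p = 0.15 over 9 comparisons), and the injured groups overlapped in all of them.

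The genes around the enzymes were taken from 7 lists, 65 of whose 67 genes passed the filter. In injured VEGFR3 fl/fl against Sham 34 were called higher and 6 lower by edgeR (22.1% and 17.5% of all tested genes), with a median log2 fold change of 0.77. The lists too were chosen with earlier results of these data known, so their counts are descriptive. Of the 12 substrates and scaffolds of lysyl oxidases 9 rose and 0 fell, led by Fn1, which encodes fibronectin (log2 fold change 4.98 ± 0.28 SE), Col1a1 (3.94 ± 0.20) and Col1a2 (3.74 ± 0.19). Of 7 tested procollagen processing genes 6 rose and 0 fell, led by the procollagen N-proteinases Adamts14 (3.00 ± 0.52 SE) and Adamts2 (2.53 ± 0.16) and by Bmp1 (2.22 ± 0.22), the C-proteinase that also cleaves the lysyl oxidase proenzyme. Of 14 collagen folding and modification partners 7 rose, among them Fkbp10 (1.37 ± 0.10 SE), a chaperone that acts with PLOD2, P4hb (1.17 ± 0.10), the beta subunit of prolyl 4-hydroxylase, and the collagen chaperone Serpinh1 (1.12 ± 0.12). The glycosyltransferase Colgalt2 was the 1 that fell (-1.89 ± 0.16 SE).

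Of the 10 TGF-beta ligands and response genes 7 rose and 1 fell in injured VEGFR3 fl/fl irises: Tgfbi (log2 fold change 4.17 ± 0.17 SE), Ccn2 (2.82 ± 0.26) and the ligand Tgfb1 (2.28 ± 0.13) led, and the ligand Tgfb2 was lower (-0.74 ± 0.10). Of the 12 hypoxia targets 2 rose (Car9, 1.07 ± 0.37, and Ankrd37, 1.03 ± 0.30) and 3 fell, which were the glucose transporter Slc2a1 (-1.81 ± 0.16), Pdk1 (-1.42 ± 0.13) and Vegfa (-1.01 ± 0.20). Over all tested genes 22.1% were called higher and 17.5% lower. Car9 and Ankrd37 were at 0.845 to 3.68 CPM in these libraries, and Car9 overlapped between the groups. The median of the hypoxia list was -0.28. Lox, Plod2 and P4ha1, which are known hypoxia-responsive genes, rose in the same libraries, and a part of hypoxia in this was not tested. Of 4 other matrix crosslinkers F13a1 (2.17 ± 0.37 SE) and Tgm2 (0.77 ± 0.12) rose and Tgm1 fell (-1.72 ± 0.17). Of 6 tested genes for the supply of copper, ascorbate and zinc, the copper chaperone Atox1 rose (0.93 ± 0.09 SE) and 0 fell; Atp7a, which loads copper onto secreted enzymes such as lysyl oxidases, was at 0.02.

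In injured VEGFR3iLECko against Sham irises 32 of the 65 genes were called higher and 4 lower (19.7% and 15% of all tested genes), with a median log2 fold change of 0.62. Between the injured groups edgeR called 1 of the 65 (0.573% of all tested genes were called higher and 0.466% lower). The count of 1 moved between 0 and 4 when single libraries were left out, and DESeq2 gave 4.

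**Figure D4:**
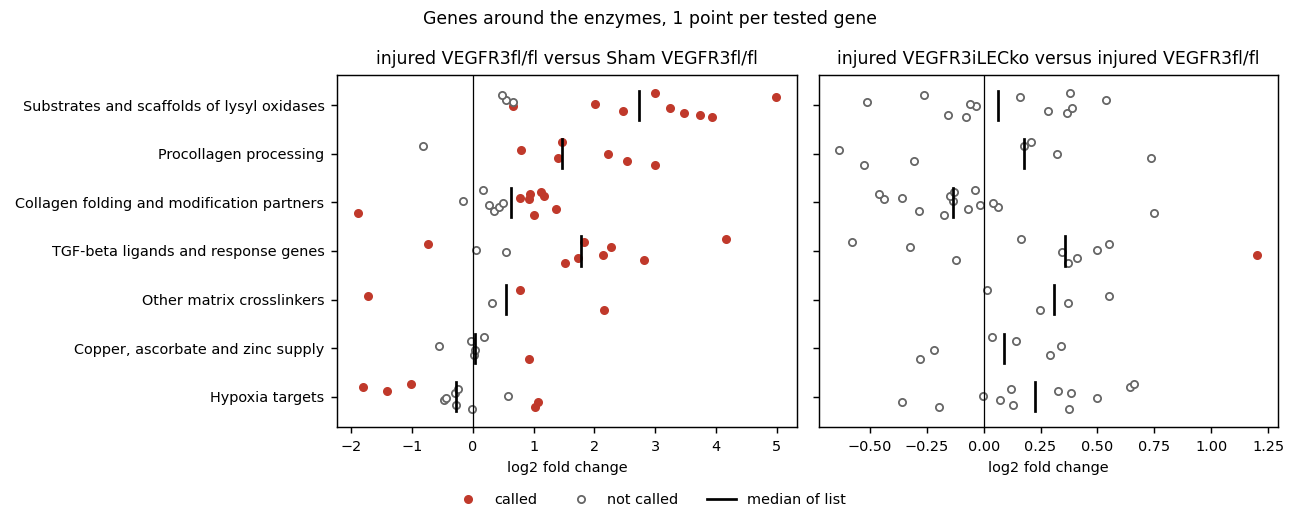
Log2 fold change (edgeR) of each tested gene of the 7 lists, 1 point per gene, filled where called, with the median of each list as a black line; injured VEGFR3 fl/fl against Sham on the left, the injured groups on the right. The list medians on the left run from -0.28 for hypoxia targets to 2.73 for substrates and scaffolds, and on the right 1 point is filled.

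Parts of some enzymes' counts are uncertain. Exons of Loxl3 share 535 bases with Htra2 and those of Plod3 share 529 bases with Znhit1, each on the opposite strand, and whether the counting used strand is not given in the sources used here. Exons of Plod2 share 346 bases with Gm38391 and those of Loxl2 share 301 bases with Gm27177, also on the opposite strand. Neither Gm38391 nor Gm27177 was among the genes with counts. Htra2 had a log2 fold change of 0.00 and Znhit1 of 0.49 in injured VEGFR3 fl/fl against Sham irises. Counts of Loxl2, Loxl3 and Plod3 were not whole numbers in all 9 libraries, so reads there were shared out by the estimation.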

How the data were processed

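Iris RNA was sequenced (single-end, 50 bases) in 9 libraries. The authors deposited estimated counts per gene, not normalized; the submitters' processing notes name HISAT2 2.0.4, Bowtie2 2.2.5 and build mm10, and the count estimator and annotation are not given in the sources used here. Groups followed the titles, since the genotype tags of 2 VEGFR3iLECko libraries name another VEGFR number. Counts were rounded, filtered by filterByExpr, scaled by TMM and fitted with group as the only term over all 9 libraries in edgeR 4.0.16 (R 4.3.3), with Benjamini-Hochberg adjustment over 15010 genes; genes were called at an adjusted p under 0.05 and more than 1.5-fold. SEs and 95% intervals come from the F statistic. Shares and ratios were compared by 2-sided exact permutation tests (scipy 1.17.1) and used lengths from GENCODE transcripts (96.1% of genes). The Plod1 length comes from a non-coding transcript. DESeq2 1.42.0, other scalings, no filter, a replicate block, the 6 libraries compared and leaving out each library were alternatives. In simulated counts for injured VEGFR3 fl/fl against Sham (15010 genes) edgeR recovered 85% of 200 genes changed 3-fold, with 4 false calls. In the data far more genes differed (3323 called higher and 2630 lower). Most enzymes changed less than 3-fold, and recovery at smaller folds was not simulated. Each library pools 3 irises, and whether pools are separate litters is not stated, so p-values measure the spread between these libraries. The labels name no batch. The study reports 3 sequencing experiments, and whether the replicate numbers follow them is not stated. The members and lists were chosen with earlier results of these data known. Named pathway genes were, per list and comparison, up to 3 rising and 3 falling called genes with a mean of at least 1 CPM, and the 1 gene called between the injured groups is not reported here. Others, such as Atp7a, were named after their values were seen. A combined table with the same counts and group averages was not used.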

Additional observations from a re-analysis of the deposited data

How the results depend on the processing

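The counts of called enzymes stayed within 1.5 times of 8, 0 and 8 under all alternatives tried for the 3 comparisons. Of 510 refitted log2 fold changes of single enzymes 489 kept direction and side of the threshold, 11 lost a call, 5 gained one and 5 reversed. The reversals were near 0: Loxl3 between the injured groups became 0.0346 with library size only and ran from -0.12 to 0.0493 when libraries were left out, and P4ha3 ran from -0.19 (without injured VEGFR3 fl/fl replicate 1) to 0.4011. Loxl3 lost its call against Sham with upper quartile scaling (0.57), library size only (0.42) and the replicate block (0.58); Loxl4 (0.52) and P4ha1 (0.52) of VEGFR3iLECko against Sham lost theirs with library size only. The 1 pathway gene called between the injured groups became 2 with upper quartile scaling, 0 with library size only, 4 with DESeq2, 0 with the replicate block, 0 with only the 6 libraries compared, 4 with DESeq2 on those 6 libraries (chosen after the data were seen), 2 with no fold threshold, and 0 to 4 when single libraries were left out. Over all genes the calls between the injured groups (86 higher, 70 lower) were 349 and 280 with DESeq2, 11 and 13 with the block, and 0 and 0 with the 6 libraries alone, where 2805 had an unadjusted p under 0.05. Same-numbered libraries of different groups were not treated as pairs, and the block was used only as an alternative. Correlations of their deviations from the group means were -0.35 to 0.18 in 9 pairs, and -0.25 to 0.345 between differently numbered libraries. With 3 libraries per group these values cannot exclude a shared litter or batch.

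Shares and ratios depended on the length used. With the median transcript length the lysyl oxidase to collagen log2 ratio differed from Sham by -2.19 in injured VEGFR3 fl/fl and -2.15 in VEGFR3iLECko irises, in place of -1.63 and -1.57, and the Loxl1 share of VEGFR3iLECko irises was 4.78 percentage points above Sham in place of 10.3 below. The longest protein-coding transcript, added once the data had been seen, reversed 0 of the differences of shares and ratios between groups, but it put Plod1 above Plod3 in the order of levels in Sham and in injured VEGFR3 fl/fl irises. Without injured VEGFR3 fl/fl replicate 1 the Loxl1 share minus that of Sham was -5.35 points, and when single libraries were left out it reached 9.92. Between the injured groups the Loxl4 share differed by -0.00847 and -0.00165 points (highest 0.07304) without VEGFR3iLECko replicate 2 or injured VEGFR3 fl/fl replicate 1, and the lysyl oxidase ratio by -0.0211 and -0.113 without VEGFR3iLECko replicate 2 or injured VEGFR3 fl/fl replicate 3. The cause of these changes was not tested. With 5, 2 and 5 counts of P4ha3 in Sham, counting error limits its fold.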
